A study of Mus musculus with 3 samples.

Results

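Untreated mouse leukaemia cells and cells given either of 2 treatments were compared on 3 arrays, and the genes described here are those that lay on the same side of the untreated value after both treatments. A gene was taken when its signal on each treated array was at least 2-fold higher, or at least 2-fold lower, than on the untreated array, which is a log2 difference of 1 or more the same way on both. Of 16831 genes or transcripts measured on all 3 arrays 955 met that rule, 593 of them higher (3.52% of those measured) and 362 lower (2.15%). These counts are set by the rule itself and carry no test.

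The cells are called HoxA9-Meis1 AML cells, an acute myeloid leukaemia line of the C57Bl/6 mouse strain taken from whole bone marrow and named for the homeobox genes Hoxa9 and Meis1. The labels do not say how the line was made, whether it is 1 clone, or how many cultures gave each RNA. All 3 groups were kept in SFEM, a serum-free medium for blood progenitors, and were sampled at 24 h. One group was untreated, one received Pyrydopyrazine A2 at 3.4 µM, and one received all-trans retinoic acid (RA) with 1α-hydroxy vitamin D3 (D3V), each at 10 µM. Total RNA of each group was hybridized to 1 one-colour Agilent array, so there is no replicate, and every difference below is between single arrays. The question set by the design was how the expression of treated cells differs from that of untreated cells.

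Which treated array is which is not certain from the deposited files. In the authors' deposited value table the columns named RA+D3V and A2 carry the probe ranks of the scanner files with each other's name. The arrays are called here by their scanner-file labels. Because a gene had to differ on both treated arrays, the set of 955 genes is the same whichever label is right, but a value quoted for 1 treated array belongs to that array and not necessarily to the compound. The treated arrays share the untreated array, so any error in its value moves both differences together. The value table also holds a control column that matched none of the scanner files, called the second control here. It carries the untreated label, but which sample it comes from is unknown, and each value given against it rests on that label.

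Signals are given as levels, that is, log2 processed signal relative to the 75th percentile of the same array, and differences are treated minus untreated levels. Between 46.0% and 46.8% of 59305 spots were well above background on each array and none was saturated. Replicate spots of 1 probe had a median SD of 0.0606 to 0.0703 within an array. The control sources were compared by the mean shift of both treated differences when the second control replaced the untreated array. That shift also holds any change of scaling between the scanner files and the value table. Over all measured genes its SD, called the SD between control sources, was 0.273, and it reached 2-fold in 124 genes (0.737%). The median difference over all measured genes was -0.02 on each treated array. Of 9 measured myeloid leukaemia markers, Ptprc (the leukocyte antigen CD45) had levels of 3.24, 3.43 and 3.07 on the untreated, RA+D3V and A2 arrays, and Hoxa9 had levels of 4.34, 4.72 and 5.53. The probe of Meis1, the other gene in the line's name, did not rise well above background on any of the arrays, so it shows nothing of that transcript.

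Acute myeloid leukaemia is a cancer of myeloid progenitors that divide without completing their maturation into granulocytes, monocytes or macrophages. Retinoic acid and vitamin D act through nuclear receptors and are known to drive myeloid leukaemia cells towards maturation. In low oxygen, or when prolyl hydroxylases are inhibited, hypoxia-inducible factors accumulate, bind a short core sequence in promoters and enhancers, and switch on genes of glucose use, oxygen supply and mitochondrial turnover. Genes of mitosis are known to be silenced when cells leave the cycle, in part through a promoter element called the cell cycle genes homology region.

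The promoters of members from the hypoxia, glycolysis and mitosis lists are printed because several of those genes moved together, and because each holds a short motif known from its pathway. Each line gives the 250 bases before the annotated start, 5′ to 3′ on the gene's strand, from RefSeq on build GRCm38.p6. In the first 5 lines capitals mark ACGTG or GCGTG on either strand, the core that hypoxia-inducible factors bind; matches may overlap where the core is its own reverse complement in part. The windows are chr8:45999851-46000100 on the minus strand for Ankrd37, chr7:138909507-138909756 on the minus strand for Bnip3, chr11:54100674-54100923 on the plus strand for P4ha2, chr11:120948817-120949066 on the plus strand for Slc16a3 and chr3:51396548-51396797 on the minus strand for Mgarp.
Ankrd37: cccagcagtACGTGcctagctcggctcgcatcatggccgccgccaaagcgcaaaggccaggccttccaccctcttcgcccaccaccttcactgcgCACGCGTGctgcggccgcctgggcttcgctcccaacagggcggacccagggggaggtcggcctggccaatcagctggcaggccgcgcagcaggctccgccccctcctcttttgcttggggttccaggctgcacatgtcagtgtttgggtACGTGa
Bnip3: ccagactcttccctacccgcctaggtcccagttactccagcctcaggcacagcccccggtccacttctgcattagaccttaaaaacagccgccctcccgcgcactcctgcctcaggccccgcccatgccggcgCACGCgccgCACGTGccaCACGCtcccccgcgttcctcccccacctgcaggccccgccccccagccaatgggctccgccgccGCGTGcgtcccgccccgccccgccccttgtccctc
P4ha2: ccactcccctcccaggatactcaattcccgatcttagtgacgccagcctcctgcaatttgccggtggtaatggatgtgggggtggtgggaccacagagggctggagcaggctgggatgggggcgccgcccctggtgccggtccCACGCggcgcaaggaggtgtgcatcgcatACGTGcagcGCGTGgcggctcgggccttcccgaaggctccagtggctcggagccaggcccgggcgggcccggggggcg
Slc16a3: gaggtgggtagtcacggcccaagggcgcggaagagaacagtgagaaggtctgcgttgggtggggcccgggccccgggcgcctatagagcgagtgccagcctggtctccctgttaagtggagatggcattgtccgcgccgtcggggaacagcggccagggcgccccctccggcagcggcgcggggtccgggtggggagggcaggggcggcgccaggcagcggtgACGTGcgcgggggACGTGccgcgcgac
Mgarp: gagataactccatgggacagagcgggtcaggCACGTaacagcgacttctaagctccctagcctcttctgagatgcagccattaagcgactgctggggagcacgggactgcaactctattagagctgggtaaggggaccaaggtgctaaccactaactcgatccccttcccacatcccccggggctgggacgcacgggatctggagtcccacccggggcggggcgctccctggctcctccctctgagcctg
In the next 3 lines capitals mark TTTGAA or TTCGAA on either strand, the letters of the cell cycle genes homology region. The windows are chr4:118437344-118437593 on the minus strand for Cdc20, chr11:99024190-99024439 on the minus strand for Top2a and chr19:37376132-37376381 on the plus strand for Kif11.
Cdc20: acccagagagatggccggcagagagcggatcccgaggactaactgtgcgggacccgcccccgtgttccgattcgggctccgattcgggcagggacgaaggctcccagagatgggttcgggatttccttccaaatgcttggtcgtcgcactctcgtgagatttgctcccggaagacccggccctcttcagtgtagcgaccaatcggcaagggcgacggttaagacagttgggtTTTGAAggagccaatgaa
Top2a: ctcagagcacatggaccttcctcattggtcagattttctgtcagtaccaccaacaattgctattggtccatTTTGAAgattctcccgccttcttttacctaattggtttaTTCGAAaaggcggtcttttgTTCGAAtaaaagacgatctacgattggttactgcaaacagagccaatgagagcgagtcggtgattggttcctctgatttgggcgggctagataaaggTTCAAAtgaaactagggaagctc
Kif11: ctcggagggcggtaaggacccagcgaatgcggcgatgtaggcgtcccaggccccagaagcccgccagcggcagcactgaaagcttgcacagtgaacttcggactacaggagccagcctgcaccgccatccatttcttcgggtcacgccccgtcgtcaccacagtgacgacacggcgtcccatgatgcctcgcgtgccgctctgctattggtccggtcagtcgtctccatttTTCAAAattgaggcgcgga

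Of the 19 hypoxia and glycolysis members that were higher, 16 had a promoter in the RefSeq table, and 15 of those (93.8%) held ACGTG or GCGTG in the 250 bases. The share was 60.2% of the 9745 measured genes with a promoter and 41.5% of all 27025 genes in the table. ACGTG alone was in 13 of the 16 (81.2%), against 25.2% of measured genes. The hypoxia list was drawn up of genes named for that response, so these shares describe the list and are no result of these arrays. The share among all measured genes of the hypoxia and glycolysis lists was not counted. ACGTG was in 0 of 15 macrophage, complement and chemokine members with a promoter, and 2 of those 15 (13.3%) held either core. Over all members, 49.0% of the higher and 52.8% of the lower genes held either core. The matches in the printed promoters began 6 bases before the start in Ankrd37, 35 in Bnip3, 69 in P4ha2 and 14 in Slc16a3 for the match nearest to it, and 219 bases before it in Mgarp. TTTGAA or TTCGAA was in 4 of 8 mitosis members with a promoter (50.0%), in 11 of all 29 measured mitosis genes with one (37.9%), and in 15.2% of measured genes. The match nearest the start lay 18 to 23 bases before it in Cdc20, Top2a and Kif11. CCAAT, the box bound by the NF-Y factor, was in 7 of the 8 mitosis members (87.5%), in 22 of the 29 measured mitosis genes (75.9%) and in 40.7% of measured genes. Matches are letters in a window and not bound sites, these shares were not adjusted for base composition, and nothing here measured binding.

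**Figure D1:**
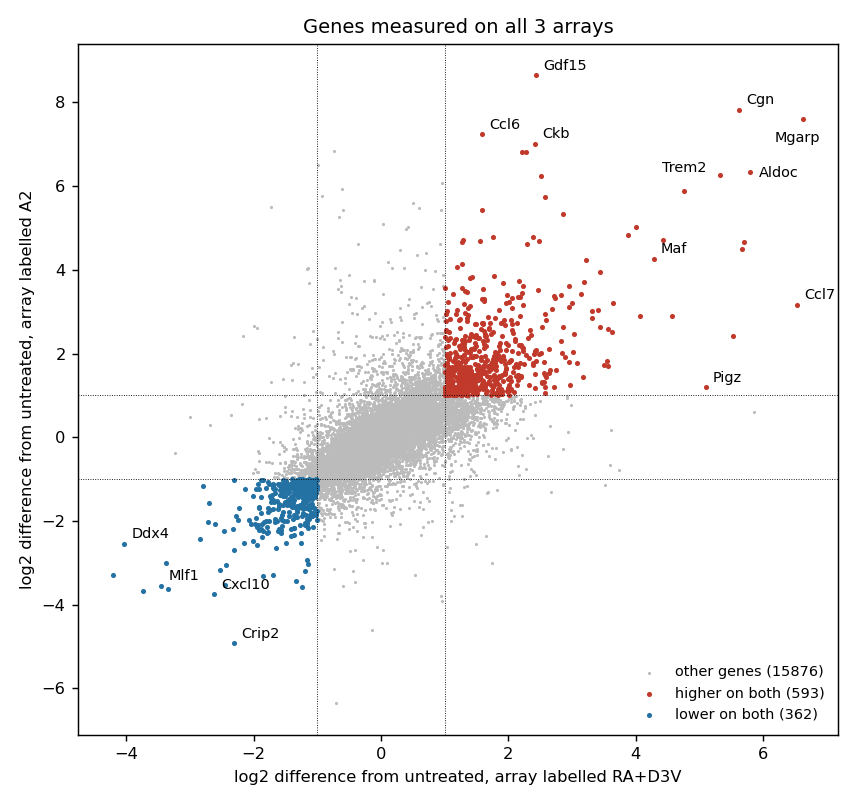
Each point is 1 of 16831 measured genes. The horizontal axis is the log2 difference between the RA+D3V and untreated arrays, the vertical axis that between the A2 and untreated arrays, and dotted lines mark a log2 difference of 1 either way; red points are the 593 higher and blue points the 362 lower genes. Mgarp lies farthest out on both axes together (6.64 and 7.61), while Gdf15 (2.44 and 8.65) and Pigz (5.10 and 1.19) lie far out on one. Both axes use the same untreated array.

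The hypoxia response list held the largest number of higher members of any list. Of its 21 measured genes 13 were at least 2-fold higher on both treated arrays and 0 were lower, with a median mean difference of 1.70 against -0.01 for all measured genes. Taken singly, 14 of the 21 were 2-fold higher on the RA+D3V array and 16 on the A2 array, while 7.97% and 8.0% of all measured genes were. With the second control in place of the untreated array 14 were higher on both, and all 13 were among them. Requiring a log2 difference of 1.5 left 7, and with normexp background correction 9 were higher on both.

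Mgarp, which encodes a mitochondrial protein induced in low oxygen, had the largest shared difference of all members. Its level was -3.80 on the untreated array, 2.84 on RA+D3V and 3.81 on A2, differences of 6.64 and 7.61 (probe at chromosome 3, 51192355 to 51192414, mm9). Both treated levels lay far above the untreated one, which was close to background. With normexp background correction the mean difference of Mgarp was 5.29 instead of 7.13. Ankrd37, an ankyrin-repeat gene with a hypoxia-responsive promoter, had levels of -1.17, 3.26 and 3.54 in the same order, differences of 4.43 and 4.71. P4ha2, a collagen prolyl hydroxylase subunit, had levels of -1.90, 1.98 and 2.94. Both genes were several-fold above the untreated level on each treated array, and their treated levels lay within 2-fold of each other.

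A prolyl hydroxylase and a pair of mitochondrial receptors were also among the 13. Egln3, one of the prolyl hydroxylases that mark hypoxia-inducible factors for destruction, had levels of 1.66, 4.61 and 4.77 on the untreated, RA+D3V and A2 arrays. A further Egln3 probe gave differences of 3.17 and 3.36. Bnip3, a receptor for the removal of mitochondria, had levels of 3.32, 6.14 and 6.72, and its relative Bnip3l had levels of 2.46, 4.51 and 5.25. In all 3 genes the untreated array was the low one and the treated arrays were close together. Both other Bnip3 probes also lay over 2-fold higher on each treated array, with differences of 2.45 to 3.37. The related hydroxylase Egln1 (differences of 0.39 and 1.55) and the mitochondrial gene Higd1a (0.66 and 0.96) did not meet the rule.

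Ddit4, an inhibitor of the growth kinase mTORC1, had levels of 3.12, 6.26 and 6.55. Vegfa, the vascular growth factor, had levels of -0.17, 0.86 and 2.84, so its RA+D3V difference of 1.04 was just past the threshold while its A2 difference was 3.01. Ndrg1 had the reverse order, with levels of 2.95, 5.08 and 4.21. Hilpda, a lipid droplet protein, Bhlhe40, a repressor of transcription, Fam162a and P4ha1 completed the 13, with smaller differences of 1.04 to 1.49. A further P4ha1 probe gave differences of 0.3 and 1.39 and so missed the rule. Genes of the list that did not meet the rule include the factor Hif1a itself (differences of -0.11 and 1.87) and Epas1 (0.61 and 0.56), and the carbonic anhydrase Car9 (0.14 and 0.04). Taken array by array, 20 of the 21 lay above the untreated level on RA+D3V and 21 on A2.

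In the glycolysis list 6 of 22 measured genes were higher on both treated arrays and 0 were lower, with a median mean difference of 0.89. The list counts were 7 genes 2-fold higher on the RA+D3V array and 10 on A2. Aldoc, an isoform of the glycolytic enzyme aldolase best known from brain, had levels of 0.80, 6.59 and 7.14 on the untreated, RA+D3V and A2 arrays (probe at chromosome 11, 78140198 to 78140257, mm9). Its differences of 5.79 and 6.34 were the second largest of the shared response by the smaller of the 2 values. The main isoform Aldoa had levels of 8.88, 10.06 and 10.34, a far smaller difference from an already strong signal.

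Slc16a3, which exports lactate, had levels of 4.07, 6.54 and 7.59, and the glucose importer Slc2a1 had levels of 3.38, 4.82 and 5.29. Pfkl, a subunit of phosphofructokinase, had levels of 1.27, 3.17 and 4.02, and the triose phosphate isomerase Tpi1 had levels of 6.89, 7.96 and 8.80. In each of these genes the untreated array was lowest and A2 highest. Against the second control 5 of the 6 stayed past 2-fold on both arrays; Aldoa missed it with 0.94 on the RA+D3V array. Hexokinase 1 (Hk1) had differences of 0.00 and 0.06 from a level of 8.43.

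**Figure D2:**
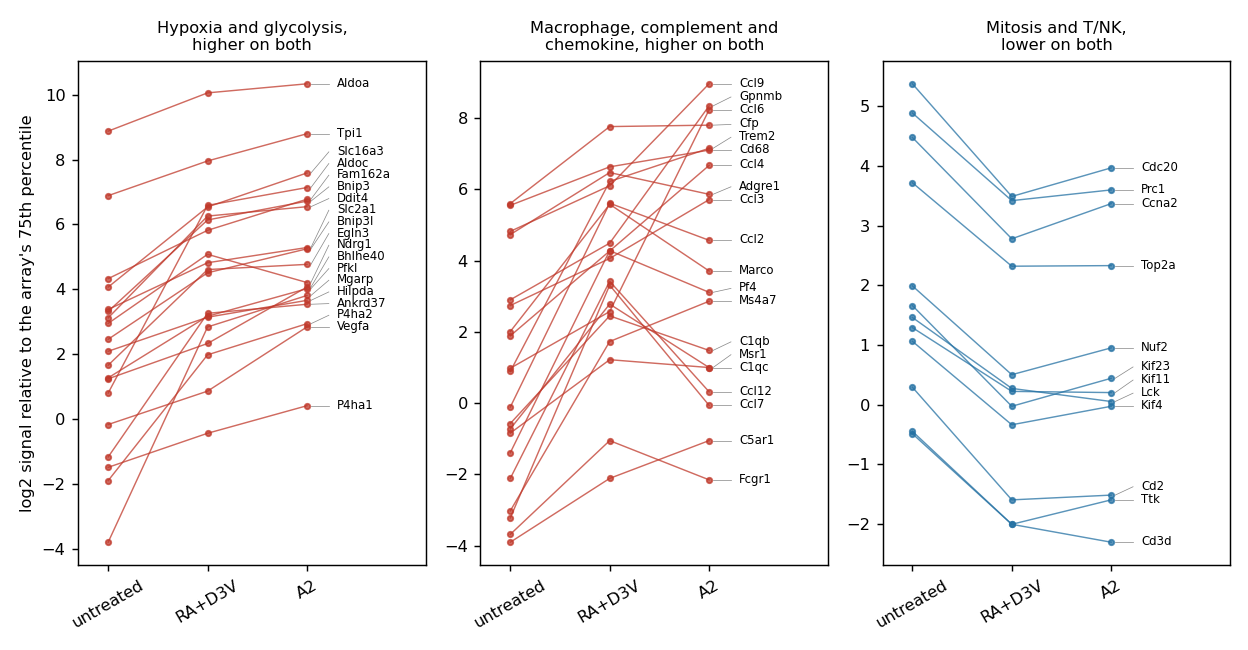
Each line is 1 gene, and its points are the level on the untreated, RA+D3V and A2 arrays, as log2 signal relative to that array's 75th percentile; there is 1 array per group, so no error bar can be drawn. The panels show the higher members of the hypoxia and glycolysis lists, the higher members of the macrophage, complement and chemokine lists, and the lower members of the mitosis and T and NK cell lists. Every line leaves the untreated array in its panel's direction because the rule requires it; the spread between the treated arrays is widest among chemokines such as Ccl6 (2.57 and 8.23).

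Among receptors and surface proteins of macrophages, 8 of 22 measured genes were higher on both treated arrays and 2 were lower, with a median mean difference of 1.32. Against the second control 7 of the 8 and 1 of the 2 stayed past 2-fold. With normexp correction 6 genes of the list were higher on both arrays and 2 lower. Trem2, a lipid-sensing receptor of macrophages and microglia, led the list with levels of 0.89, 6.22 and 7.15 (probe differences of 5.32 and 6.26). Ms4a7, a membrane protein of mature macrophages, had levels of -3.02, 1.73 and 2.86. For both genes the treated arrays lay far above the untreated array and much nearer to each other. The treated levels of Ms4a7 were still more than 2-fold apart, and its untreated level was low.

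The scavenger receptors Msr1 and Marco bind modified lipoproteins and bacteria. Msr1 had levels of -0.84, 1.22 and 1.00, and Marco had levels of 2.01, 5.58 and 3.71. Adgre1, the macrophage antigen F4/80, had levels of 4.73, 6.47 and 5.86. Marco and Adgre1 were thus highest on the RA+D3V array. Gpnmb, a glycoprotein of lysosome-rich macrophages, had levels of 2.90, 4.49 and 8.34, and was highest on A2 by a wide margin. Cd68, a lysosomal membrane protein, had levels of 5.55, 6.63 and 7.10, and the high-affinity Fc receptor Fcgr1 had levels of -3.68, -1.05 and -2.15, close to background. Against the second control Fcgr1 had a difference of 0.97 on A2 and so missed the threshold.

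The 2 lower genes of the list are receptors of monocytes. Cx3cr1, the fractalkine receptor, had levels of 0.55, -1.88 and -2.50, and a further Cx3cr1 probe gave differences of -2.90 and -2.64. Cd14, a co-receptor for bacterial lipopolysaccharide, had levels of 3.05, 1.80 and 1.81, and its differences shrank to -0.95 and -0.97 against the second control. The receptor for the macrophage growth factor, Csf1r, had levels of 6.12, 6.71 and 6.81 and did not meet the rule.

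Complement genes had a median mean difference of 2.03, and 4 of 8 measured were higher on both treated arrays and 0 were lower. C1qb had levels of -0.57, 2.45 and 1.48 and C1qc levels of -0.72, 2.78 and 1.00; both encode chains of C1q, the recognition unit of the classical pathway. The partner chain C1qa had levels of -0.86, 2.12 and -0.09, so it was past 2-fold on the RA+D3V array and not on A2. Properdin (Cfp), which stabilizes the alternative pathway's convertase, had levels of 5.60, 7.76 and 7.80. The receptor C5ar1 had levels of -3.90, -2.11 and -1.05. All 4 stayed past 2-fold against the second control, and with normexp correction 3 genes of the list were higher on both arrays.

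Chemokines had the highest median mean difference of any pathway list, 2.71, and wide gaps between the treated arrays. Of 13 measured genes 8 were higher on both arrays and 2 were lower, with the same counts against the second control. The monocyte attractant Ccl2 had levels of -0.11, 5.61 and 4.57, and platelet factor 4 (Pf4), a chemokine of platelets and macrophages, had levels of -1.39, 4.28 and 3.11. The neighbouring monocyte attractants Ccl7 (-3.22, 3.31 and -0.06) and Ccl12 (-2.11, 3.42 and 0.32) were also highest on the RA+D3V array. These 4 genes were higher on RA+D3V than on A2 by 1.04 to 3.37 on the log2 scale.

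The other 4 chemokines were highest on A2. Ccl3 had levels of 2.74, 4.06 and 5.71, and the related attractant Ccl4 had levels of 1.89, 4.27 and 6.67. Ccl6 had levels of 0.98, 2.57 and 8.23, and Ccl9 had levels of 4.82, 6.10 and 8.96. The lower genes were Cxcl10, an interferon-induced attractant of T cells, with levels of 1.66, -0.97 and -2.09, and Ccl5, with levels of 2.26, 1.18 and 1.25. By the smaller of its differences Cxcl10 came second among lower members with a RefSeq name (probe at chromosome 5, 92775781 to 92775840, mm9).

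Granule proteins of myeloid cells were split. Of 18 measured genes 4 were higher on both arrays, 1 was lower, and the median mean difference was 0.31. The collagenase Mmp8 had levels of 0.35, 4.36 and 5.37 and the gelatinase Mmp9 levels of -1.24, 0.93 and 2.49, both proteins of late neutrophil granules. Cathepsin C (Ctsc), which activates granule proteases, had levels of 3.34, 4.60 and 4.78, and the protease Prss57 had levels of 0.02, 1.47 and 1.52. Myeloperoxidase (Mpo), the signature enzyme of early granules, had levels of 9.39, 7.82 and 7.17, differences of -1.57 and -2.22. A further Mpo probe gave differences of -2.20 and -2.83, so both probes placed Mpo lower on each treated array. The other early granule proteases Elane, Prtn3 and Ctsg had mean differences of -0.91, 0.03 and -0.05 and did not meet the rule. Nor did the further late granule genes Ltf, Camp, Ngp and Lcn2, with mean differences of -0.06, -0.11, 0.05 and 0.58.

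Among 16 measured integrins and adhesion genes 1 was higher on both arrays. It was Itgam, the CD11b chain of the integrin of monocytes, macrophages and granulocytes, with levels of 2.08, 4.39 and 4.45 (differences of 2.31 and 2.37). Both further Itgam probes were past 2-fold on each array, with differences of 2.13 to 2.71. The treated arrays were nearly equal for this gene and well above the untreated one.

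Of 21 measured transcription factors of blood lineages 4 were higher on both treated arrays and 0 were lower. Maf, a leucine zipper factor of macrophages, had levels of -2.77, 1.52 and 1.5. Maf had differences of 4.29 and 4.27, so the treated arrays agreed within 0.03 on a difference of over 4. Klf2 had levels of 1.5, 2.67 and 3.22 and the early growth response gene Egr1 levels of -1.55, -0.29 and -0.44. The myeloid master factors Spi1 (mean difference -0.25) and Cebpa (-0.28) did not meet the rule. Of the growth factor receptors, Il7r was higher, with levels of -1.86, -0.39 and 0.86, and the progenitor receptor Flt3 was lower, with levels of -0.42, -2.22 and -2.71. Flt3 was the only lower gene on both arrays among 12 measured genes of the Hoxa9 and Meis1 program, a list that also held Myb, Cd34 and Hoxa9; 0 of the 12 were higher on both.

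Lysosomal genes had a median mean difference of 0.84 and 4 of 24 measured were past 2-fold on both arrays, none of them lower. The A2 array alone had 14 of the 24 past 2-fold and the RA+D3V array 4. They include the protease cathepsin D (Ctsd; levels of 6.19, 7.87 and 9.07), the lipid-degradation cofactor Psap (5.21, 6.26 and 8.44) and progranulin (Grn; 5.78, 7.12 and 6.79). Lgmn, a lysosomal protease outside the list, had levels of 1.72, 4.91 and 5.44. With normexp correction 2 of the 4 stayed past the threshold.

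In cholesterol synthesis 5 of 23 measured genes were higher on both arrays and 0 were lower, with a median mean difference of 0.79, and all 5 were also past 2-fold against the second control. They encode enzymes along the pathway: Mvd (levels of 3.14, 4.41 and 4.53), Fdps (6.11, 7.47 and 7.29), Lss (1.41, 2.50 and 2.71), Nsdhl (0.32, 1.33 and 1.52) and Tm7sf2 (1.56, 3.44 and 3.64). The treated arrays lay within 0.22 of each other in each of these genes. A further Nsdhl probe gave differences of 0.9 and 1.14 and so missed the rule. Normexp correction left 3 of the 5.

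Of 9 measured secreted factors and matrix genes 4 were higher on both arrays. Osteopontin (Spp1), a cytokine and matrix protein of macrophages, had levels of -1.37, 0.18 and 3.31, and fibronectin (Fn1) had levels of -1.02, 0.15 and 1.31. Thrombospondin 1 (Thbs1) had levels of -2.27, -0.61 and 0.05 and the membrane protease Mmp14 levels of -3.89, -1.36 and -2.58. Normexp left 2 of these 4, whose untreated levels were all below the array's 75th percentile.

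Single members stood out in lists that otherwise held few. Cingulin (Cgn), a scaffold protein of epithelial tight junctions, had levels of -4.10, 1.53 and 3.73 and was the only member among 7 measured tight junction genes. Its untreated level was near background, and with normexp its mean difference was 4.77 instead of 6.73. Gdf15, a stress-induced cytokine, had levels of -1.66, 0.79 and 6.99; with Trp53inp1 (0.75, 3.34 and 2.19) it made up the 2 higher of 18 measured p53 targets. Atf3, a stress-induced transcription factor, had levels of -0.59, 1.64 and 1.55, whereas Mthfd2 and Pck2, metabolic genes of the same integrated stress response list, were lower. Mthfd2, a mitochondrial folate enzyme, had levels of 4.52, 2.79 and 2.98, and Pck2 had levels of -1.90, -3.34 and -3.39.

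Only 1 of 10 measured retinoid and vitamin D response genes met the rule. It was Dhrs3, which reduces retinal, with levels of 3.23, 4.57 and 6.69. The receptor Vdr had levels of 0.33, -0.32 and 4.09 and the transglutaminase Tgm2 levels of -0.95, -1.69 and 5.89, high on the array labelled A2 alone. The shared response therefore left out most of the measured genes of this list. A further 7 of its 17 genes, among them Cyp24a1, Cyp26a1 and Cyp26b1, were not well above background on all 3 arrays. Those genes could not meet the rule, whatever their change.

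**Figure D3:**
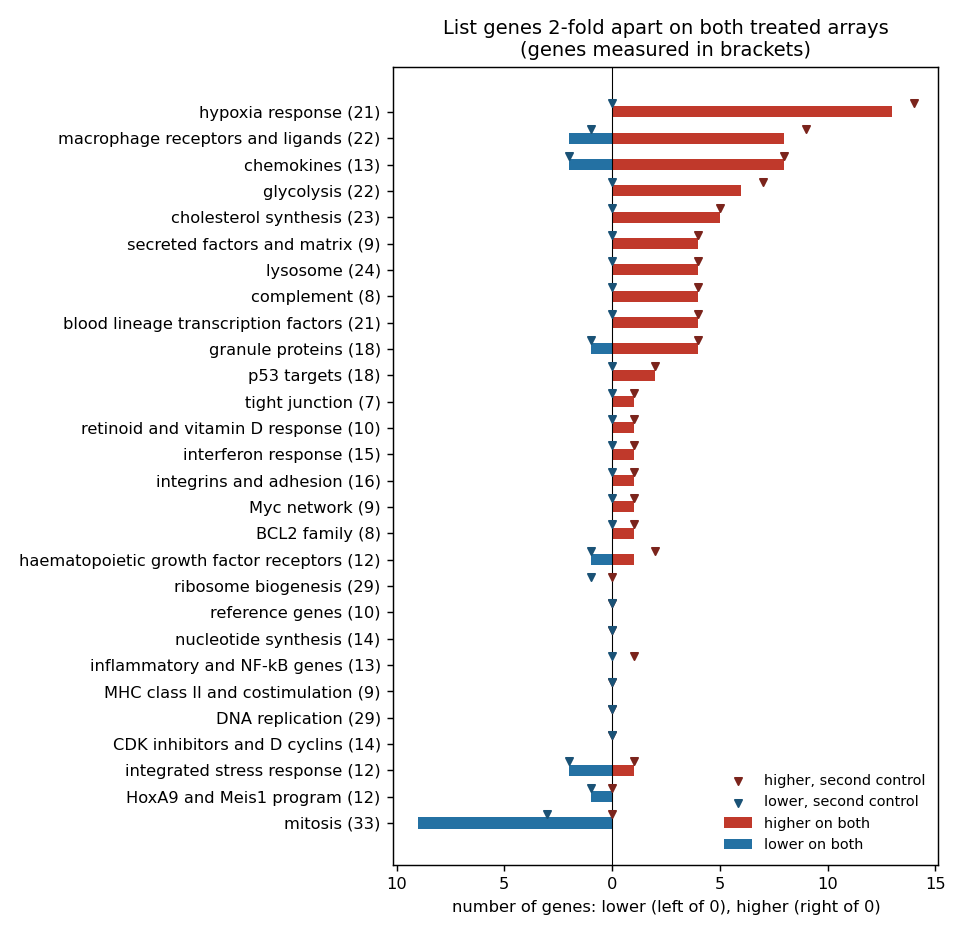
Bars give the number of genes in each list that were at least 2-fold higher (right of 0) or lower (left of 0) on both treated arrays, with the genes measured on all 3 arrays in brackets. Triangles give the same counts with the second control in place of the untreated array: hypoxia goes from 13 to 14 and mitosis from 9 to 3.

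Genes of mitosis made up the largest group of lower list members. In 9 of 33 measured genes both treated arrays lay at least 2-fold below the untreated one, in 0 above it, with a median mean difference of -1.03. Taken singly, 25 of the 33 were 2-fold lower on the RA+D3V array and 10 on the A2 array, while 4.26% and 5.7% of all measured genes were. All 33 lay below the untreated level on the RA+D3V array and 32 on the A2 array. Against the second control 3 of the 9 (Cdc20, Ccna2 and Prc1) stayed past 2-fold on both arrays. The differences of some others stayed close to the threshold there, -0.97 and -1.07 for Top2a, -0.95 and -0.98 for Kif11 and -1.40 and -0.98 for Nuf2. At a log2 difference of 1.5, 0 of the 9 remained, and with normexp correction 7 genes of the list were lower on both arrays.

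Cdc20, an activator of the anaphase-promoting complex, had levels of 5.38, 3.49 and 3.97 on the untreated, RA+D3V and A2 arrays, and cyclin A2 (Ccna2) had levels of 4.48, 2.78 and 3.37. Prc1, which bundles microtubules of the central spindle, had levels of 4.89, 3.42 and 3.60. Top2a, the topoisomerase that untangles chromosomes, had levels of 3.72, 2.32 and 2.33. In all 4 genes the untreated array was the high one and the RA+D3V array the lowest. The kinesins Kif11 (levels of 1.29, 0.22 and 0.20), Kif23 (1.66, -0.03 and 0.44) and Kif4 (1.06, -0.34 and -0.03) move spindle microtubules. Nuf2 (1.99, 0.50 and 0.95) attaches chromosomes to them, and the checkpoint kinase Ttk had levels of -0.49, -2.01 and -1.60.

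Genes of DNA replication did not move with those of mitosis. Of 29 measured, 0 were past 2-fold either way on either treated array, and the median mean difference was 0.03. Of 14 CDK inhibitors and D cyclins 0 were past 2-fold on both. Ribosome biogenesis had 0 of 29 on both arrays, with 1 gene 2-fold lower on RA+D3V and 16 on A2, and a median mean difference of -0.76. Of 14 nucleotide synthesis genes 0 were past 2-fold on both arrays. In the remaining lists, 1 of 15 measured interferon genes (Ifitm3, with levels of 2.46, 4.43 and 4.10), 1 of 8 genes of the BCL2 family (the cell death gene Bmf, with levels of -1.45, -0.11 and 0.22) and 1 of 9 genes of the Myc network (the Myc antagonist Mxd4, with levels of 0.76, 2.92 and 2.25) were higher on both arrays. None of 13 inflammatory and NF-kB genes or of 9 genes of MHC class II and costimulation met the rule. The 10 reference genes, including actin and ubiquitin, had 0 past 2-fold on either array and a median of 0.02.

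Several lower members are genes of T cells, although the labels name a myeloid line. Of 7 measured T and NK cell markers 3 were lower on both treated arrays, none was higher, and 7 further markers were not well above background on all 3 arrays or had no probe. Cd2 had levels of 0.29, -1.60 and -1.52, Cd3d levels of -0.45, -2.01 and -2.31, and the kinase Lck levels of 1.46, 0.27 and 0.05. All 3 were past 2-fold against the second control too. The median level of the 7 measured markers was 1.26, 0.27 and 0.05 on the untreated, RA+D3V and A2 arrays. Gzmm, a granzyme of cytotoxic lymphocytes, had levels of -0.07, -2.13 and -2.04. Cd3e (mean difference -0.24), Cd4 (0.31) and Nkg7 (-0.17) did not meet the rule. In RNA from a whole culture, fewer cells of a type and less RNA per cell cannot be told apart.

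Markers of other cell types were counted in the same way. Of 9 measured macrophage markers 6 were higher on both arrays, 5 with the second control and 4 with normexp correction. The 9 had a median mean difference of 1.87 and median levels of 0.83, 2.78 and 1.48. The defining marker Cd163 did not rise well above background on any of the arrays. Of 5 measured megakaryocyte markers 2 were higher, Pf4 and the von Willebrand factor gene Vwf (levels of -2.42, -0.51 and 1.28). Of 5 measured erythroid markers 1 was lower, Hbb-b1 (differences of -1.10 and -1.06). Near-identical beta-globin genes cannot be separated from it with certainty. The stronger Hbb-bt, with an untreated level of 1.66 against -1.64 for Hbb-b1, had differences of -0.79 and -0.97 and missed the rule. Of 5 B cell markers and 4 mast cell, basophil and eosinophil markers 0 met the rule. Of 5 dendritic cell markers 1 was lower (Flt3), and of 4 stromal markers 1 was higher (Acta2), which missed the threshold against the second control with 0.86 on RA+D3V. Their part in the shared response was not tested.

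The 15 higher members with the largest shared differences also held genes outside the lists. Selenbp1, a selenium-binding oxidase of methanethiol, had levels of 2.95, 6.38 and 6.89, and Tmem119, a membrane protein best known from microglia, had levels of -0.94, 2.70 and 2.28. Hacd4, a dehydratase of long-chain fatty acid synthesis, had levels of -0.41, 2.82 and 3.83, and its other probe was past 2-fold as well. In these 3 genes the untreated level was the lowest by more than 3 on the log2 scale. The actin-severing protein gelsolin (Gsn; 3.39, 5.75 and 5.84) and the cohesin subunit Rec8 (0.01, 2.54 and 2.65) were, with Maf, Itgam and Egln3, the higher members whose treated arrays were closest among the 100 largest.

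The lower members reached smaller differences than the higher ones. Their median mean difference was -1.38 against 1.62, and 20 lower and 83 higher genes were past 4-fold on both arrays. Genes that fell to background after treatment, or rose from it, could not be members, so this comparison leaves them out. By 2-fold bounds there were 203 such lower and 139 such higher genes, described under the other observations. Mlf1, a gene named for a fusion in myeloid leukaemia, had levels of 0.23, -3.22 and -3.32, the largest shared decrease of the RefSeq-named members by the smaller of the differences (probe at chromosome 3, 67203684 to 67203743, mm9). Ddx4, a helicase of germ cells, had levels of 1.60, -2.43 and -0.94. The caveolar protein Cavin1 had levels of 2.43, -0.02 and -1.09, and the LIM-domain gene Crip2 levels of 2.07, -0.23 and -2.84. The cationic amino acid transporter Slc7a3 had levels of -0.17, -2.77 and -2.23 and Bcat1, which breaks down branched-chain amino acids, levels of -1.42, -3.34 and -3.63. Rdm1, a homologue of the recombination protein RAD52 (2.78, 0.48 and 0.09), Prag1 (4.12, 2.10 and 1.63) and the zinc-finger repressor Zbtb32 (0.06, -1.91 and -1.87) followed, and for all of these genes the second control gave both differences past 2-fold.

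For some lower members the untreated scanner array stood alone. Pex5l had levels of -0.81, -3.34 and -3.99, but against the second control its differences were 0.10 and -0.26. H2-DMb2, a chaperone of MHC class II peptide loading, and the collagen gene Col25a1 had mean differences of -2.05 each, and of 0.19 and 0.20 with the second control. Zfyve28, chosen after its values were seen, had differences of -1.62 and -2.23 that became 1.30 and 0.97. Each of these genes had an untreated level below the 75th percentile, and by the mean shift of the differences the second control lay 2.24 to 3.06 lower still. The shared decrease of these 4 genes therefore rests on 1 untreated array.

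Across all members, 423 of the 593 higher genes (71.3%) and 249 of the 362 lower genes (68.8%) were also past 2-fold on both treated columns against the second control. The treated columns hold the same arrays that chose the members, so only the control differs and this share is no independent support. Over all measured genes the second control gave 541 higher (3.21%) and 375 lower (2.23%). By the mean shift of the differences, the second control lay 2-fold or more towards the treated arrays for 23 higher and 14 lower members. For 7 higher and 10 lower members a difference changed sign on at least 1 array. Many members sat near the threshold: the smaller of the 2 differences was under 1.25 in 247 higher and 220 lower genes. Just inside were Nodal (1.0041 and 1.0015), Ethe1 (1.0018 and 1.5706) and Fgr (1.1716 and 1.0018), and just outside Atp9b (1.4308 and 0.9989) and Tcirg1 (0.9973 and 2.0401). On the lower side Smg5 (-1.0189 and -1.0020), Ccdc40 (-1.1246 and -1.0022) and Zfhx2 (-1.0042 and -1.7551) were just inside. The ribosome biogenesis gene Nop58 (-0.9984 and -1.4793), the mitotic kinase Cdk1 (-1.2174 and -0.9984) and Oip5 (-1.3644 and -0.9976) were just outside.

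**Figure D4:**
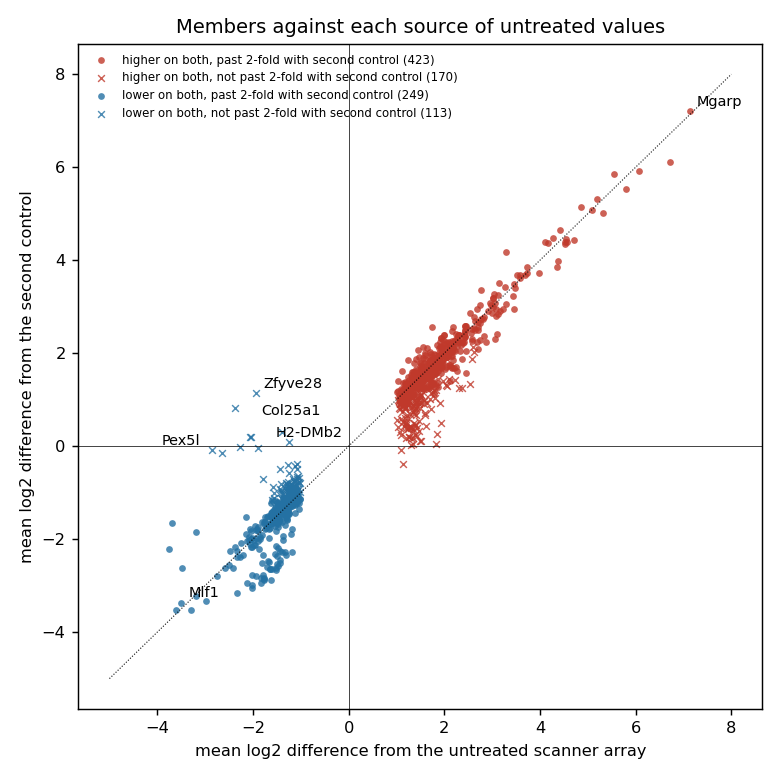
Each point is 1 of the 955 members; the horizontal axis is its mean log2 difference from the untreated scanner array and the vertical axis the mean log2 difference from the second control, with the line of equal values dotted. Circles are members past 2-fold on both treated arrays with either control (423 higher, 249 lower), and crosses are the rest. Pex5l, H2-DMb2, Col25a1 and Zfyve28 lie near or above 0 on the vertical axis.

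Other probes of the same genes were not used by the rule. Among the higher members 154 had 199 further probes that were well above background on all arrays, and 107 of those probes were past 2-fold the same way on both treated arrays. Of all 5894 such probes of measured genes 3.65% were. Among the lower members 56 had 71 further probes, and 29 were past 2-fold (1.9% of all such probes). In 81 higher and 21 lower members every further probe was past 2-fold, and in 65 and 30 none was. Probes of a gene share its RNA sample, so this compares probes and not cultures.

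The treated arrays were 2-fold or more apart in 117 of 593 higher and 19 of 362 lower members, and in 7.64% of all measured genes. The members were chosen on these same arrays, so the counts only describe them. The A2 array was farther from untreated by 2-fold or more in 88 higher and 15 lower members, and the RA+D3V array in 29 and 4. Gdf15, Ccl6, Gpnmb and the brain-type creatine kinase Ckb (levels of -1.61, 0.81 and 5.41) had the widest gaps towards A2. Pigz, an enzyme of membrane anchor synthesis, had the widest gap towards RA+D3V, with levels of -2.23, 2.87 and -1.04. On the lower side Crip2, Cgref1 (0.65, -0.59 and -2.94), the vascular growth factor receptor Flt1 (1.82, 0.48 and -1.61), the glycolipid sulfotransferase Gal3st1 (-0.28, -1.47 and -3.48) and the carbonic anhydrase Car12 (2.21, 1.07 and -0.82) were lowest on A2. The phosphate and citrate transport gene Ank had a level of 1.19 on both treated arrays against 2.93 on the untreated one. Sec14l2 (-1.57, -3.34 and -3.35) and Rhox4a (-1.48, -3.18 and -3.19), a gene with near-identical copies, were also nearly equal on the treated arrays. Against the second control Sec14l2 was not past 2-fold (-0.80 and -0.62).

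By annotation, 452 of the 593 higher and 278 of the 362 lower members had a name in the RefSeq table, 3.7% and 2.28% of the 12212 such genes measured. Protein-coding genes made up 431 and 261 of them, and long non-coding RNAs 16 and 12. Of members without such a name, 59 higher and 45 lower were named by a genome region alone. The median untreated level was -0.41 in higher and 0.38 in lower members, against 1.23 over all measured genes, so members were weaker than the typical gene on the untreated array. The rule itself uses that array, so this comparison is not independent of how the members were chosen.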

How the data were processed

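RNA of 3 groups was hybridized to 1 one-colour Agilent array each. Per the file headers, each deposited scanner file gives the intensity of every spot after background and spatial correction, unscaled between arrays, with probe positions in mm9. The submitters' processing notes name Agilent Feature Extraction 11.5.1.1. The value table that the authors deposited holds intensity too, with equal sorted values in its columns; its making is not given in the sources used here. Other deposited columns are 0 or 1 marks for uneven, saturated or well-measured spots. Control spots, 25 uneven probes and probes with 8 or more alternating G and T bases (285 well above background on all arrays) were left out. The log2 processed signal minus the log2 75th percentile was used, replicate spots were averaged, and the brightest probe above background on all 3 arrays stood for a gene. Of 55681 probes 27741 were named by accession, 3347 by symbol and 312 by synonym from RefSeq's GRCm38.p6 table, and 24281 kept the file's name.

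With 1 array per group nothing was tested across samples, and precision was judged from replicate spots and the second control. Members and lists were chosen with earlier results of these data known. Named genes are the 15 members each way with the largest smaller difference, the 5 each way with the widest and the 5 with the narrowest gap between treated arrays (the latter among the 100 largest), the 3 on each side of the threshold, list members and cell type markers; others were chosen after their values were seen. Some genes that this rule takes are not reported here. Alternatives were normexp with an offset of 50 (limma 3.58.1 in R 4.3.3), median and quantile scaling, the value table, brighter probes, the mean over probes, a log2 threshold of 1.5, and alternating G and T probes kept. The steps were tested on simulated data (Python 3.11.15, pandas 2.3.3, numpy 2.4.6). Probe positions lack an annotation of their own build, so exons are not given.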

Additional observations from a re-analysis of the deposited data

How the results depend on the processing

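With normexp correction 342 genes were higher and 203 lower on both treated arrays, in place of 593 and 362. Keeping only probes brighter than the median of measured probes gave 314 and 104, and a log2 threshold of 1.5 gave 209 and 72; these settings test fewer genes or ask for more. Members past 2-fold with the second control, 423 higher and 249 lower, became 269 and 74 among brighter probes and 151 and 53 at 1.5, and 151 lower with normexp. Members whose further probes were all past 2-fold, 81 higher and 21 lower, became 48 and 12 with normexp and 31 and 6 at 1.5, and 9 lower among brighter probes. Median scaling gave 610 and 360, quantile normalization 546 and 405, the mean over probes 572 and 356, the value table's columns 540 and 375 (with each gene's probe picked from that table, in place of 541 and 375 with the scanner files' choice), and keeping alternating G and T probes 593 and 482. The mean differences of Col25a1 and H2-DMb2 changed sign with the value table, to 0.20 and 0.19; the cause was not tested. Of the values of named genes under the alternatives 290 stayed within the SD between control sources, 47 moved farther and 2 changed sign. These moves were not spread evenly over the settings. With normexp correction 33 named genes moved farther than that SD and 19 stayed within it. When the value table was used, 14 moved farther, 2 changed sign and 36 stayed. Median and quantile scaling, the mean over probes, brighter probes and keeping alternating G and T probes moved none of those tested. No paired analysis was possible because each group has 1 array, and for the same reason no replicate could be left out. Signal over background limits the weak genes: an untreated level near background moves with the correction.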

Other observations

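Some genes were well above background on the treated arrays and not on the untreated one, so their folds are bounds and they are no members. In 139 of 615 such genes (89 with a RefSeq name) the signal was at least 2-fold higher on both treated arrays. The reference was the larger of the untreated signal and the lowest signal well above background there. The 139 include genes of the same groups as the members. They were taken through the arrays where they were high, so they lend the members no added support. The adenylate kinase Ak4, a hypoxia-induced gene, was at least 54.5-fold higher on the RA+D3V array and at least 91.4-fold higher on A2. Ppbp, a platelet chemokine, was at least 41.0-fold and 140-fold higher, and Mertk, a macrophage receptor for dying cells, at least 16.3-fold and 25.6-fold higher. Arginase 1 (Arg1), an enzyme of macrophage arginine use, was at least 8.77-fold and 6090-fold higher, and the mannose receptor Mrc1 at least 90.5-fold and 3.05-fold higher. The opposite held in 203 of 678 genes seen on the untreated side (118 with a RefSeq name). Among them were the glycerol channel Aqp3, at least 12.4-fold and 14.3-fold lower, and the surface proteoglycan Cspg4, at least 9.37-fold and 10.8-fold lower. With the second control's values 81 of the 139 and 59 of the 203 were 2-fold apart the same way on both arrays, so most of the lower bounds rest on the untreated scanner array. Hoxa13, for example, was at least 11.3-fold and 13.0-fold lower, but its log2 differences from the second control were 1.64 and 1.12, and those of Eda, at least 10.2-fold and 11.7-fold lower, were -0.10 and 0.16. The named higher genes, Aqp3 and Cspg4 kept their direction past 2-fold with it. Genes in this paragraph were chosen after their values were seen.

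Some gene families were also counted after their members had been seen, so their counts only describe these arrays. Of all measured genes 3.52% were higher and 2.15% lower on both treated arrays. Of 11 measured CD300 and Sirp receptors, which pass activating or inhibiting signals in myeloid cells, 6 were higher on both treated arrays and 0 were lower; near-identical copies such as Sirpb1a and Sirpb1b may share signal. Cd300lf had levels of 2.78, 4.93 and 6.13 on the untreated, RA+D3V and A2 arrays, and Sirpa had levels of 3.94, 5.24 and 5.21. A further Cd300lf probe gave differences of 2.12 and 3.4, and another gave 0.98 and 1.93 and missed the rule. Of 11 purinergic receptors, which sense extracellular nucleotides, 5 were higher, among them P2ry6 (-0.68, 2.15 and 1.61) and P2rx7 (-0.81, 1.43 and 2.80). A further P2rx7 probe gave differences of 0.76 and 1.61 and so missed the rule. The 6 higher CD300 and Sirp receptors and the 5 higher purinergic receptors were past 2-fold with the second control as well. Of 12 host genes of small nucleolar RNAs 3 were lower: Snhg5 (0.74, -0.63 and -1.42), Snhg12 (3.31, 1.99 and 1.41) and Zfas1 (4.82, 3.51 and 3.18). Of 43 enzymes of tRNA and ribosome processing 12 were lower and 0 higher, and 6 of the 12 stayed past 2-fold with the second control. Trmt61a, a tRNA methyltransferase subunit, had levels of 5.26, 2.99 and 3.38. Of 16 T cell surface and signalling genes 8 were lower and 1 was higher, the costimulatory receptor Cd28 (0.74, 2.51 and 5.53). The 8 include Thy1 (0.04, -1.35 and -1.91), Icos (-1.82, -3.43 and -2.96) and Pdcd1 (-1.81, -3.19 and -3.39). Of 274 zinc finger genes named Zfp 11 were lower and 2 were higher. Of 199 solute carriers 16 were higher and 4 lower, with a median mean difference of 0.04. Of 17 C-type lectin receptors 2 were higher and 0 lower, and of 10 sterol and lipid genes 4 were higher and 0 lower. Neat1, a long non-coding RNA that builds nuclear paraspeckles, had levels of 3.02, 6.43 and 6.06. A probe that kept the file's older name NEAT1 was counted apart from it, so the members hold this gene under both names.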
